A study of Obba rivulosa with 6 samples.

Results

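In the white-rot fungus Obba rivulosa growing on spruce wood, 90 of 12424 gene models had much the same level after 2 and 4 weeks and stood higher after 8 weeks. They were selected on the authors' FPKM values, which scale the reads of a gene model by its length and by the size of the library. With 1 added to each FPKM, the lower week 8 library had to be at least 2.5 times the highest of the 4 earlier libraries, and the means of weeks 2 and 4 had to differ by less than 1.5 times. Both week 8 libraries also had to reach 10 FPKM. At that level stood 8316 models, of which 161 passed the bound of 2.5 and 90 also passed the bound on weeks 2 and 4. Because these values chose the members, all differences between weeks given for them below are descriptions and carry no test.

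The sample titles name the monokaryotic strain 3 A-2, and the labels also give the dikaryotic strain FBCC1032. A homogenised liquid pre-culture was laid on small sticks of Norway spruce over water agar and kept still and warm in the dark, and the 3 groups of 2 samples differed in the time at harvest, 2, 4 or 8 weeks. One strain stood for the species, and there was no uninoculated wood and no other medium among these samples. The labels do not say whether the samples of a week came from separate cultures, so the spread between them may be technical.

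White-rot fungi take apart all the polymers of wood. They attack lignin with secreted oxidative enzymes, among them class II peroxidases and laccases, and release sugars from cellulose and hemicellulose with glycoside hydrolases, esterases and copper-dependent monooxygenases. As wood is consumed, the sugars and nitrogen within reach of the hyphae change, and so may the demand for these enzymes, for transporters and for recycling of the fungus's own cells. The files pair the gene models with no product names. Each model is therefore given by its JGI protein ID, as 837109 for jgi|Obbri1|837109|gm1.7089_g, and none is assigned to any of these roles.

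The libraries held 4908235 to 5154075 expected counts. A typical gene model had a higher FPKM at week 8 than earlier, and this touches every week 8 value. The TMM factors, which compare libraries through their typical model instead of their total, ran from 0.906 to 0.975 in the 4 earlier libraries and were 1.14 and 1.17 at week 8. With library totals only, the median log2 fold change of all 10889 tested models was 0.31 for week 8 over week 4 and 0.37 for week 8 over week 2, against 0.01 and 0.05 with TMM. FPKM values follow the totals. When FPKM were divided by these factors, 56 of the 90 members still met the rule, and with 3 more models it took 59. Of the other 34, 30 came under the ratio of 2.5, 2 missed only the bound on weeks 2 and 4 and 2 only the level of 10 FPKM. All 90 kept a ratio of at least 2.02 on that scale. Of the libraries, week 8 replicate 1 decided the number most, and 139 models met the rule when it was not read.

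Before week 8 the members were neither silent nor abundant as a group. The median member stood at 11.1 and 11.5 FPKM in the week 2 libraries, 11.8 and 11.3 in those of week 4 and 58.3 and 65.3 in those of week 8. Models that reached 10 FPKM in both week 8 libraries had medians of 31.9, 31.7, 33.4, 31.8, 39.7 and 40.7 FPKM in the same order, so the members lay below the typical model of that level early and above it at the end. Every member was listed in every file, 87 were at 1 FPKM or more in all 4 earlier libraries and 42 were at 10 FPKM or more in all of them. A single member, 282667, was below 1 FPKM in all 4. At week 8, 20 members had a mean under 30 FPKM, 40 lay from 30 to under 100, 23 from 100 to under 1000, and 7 were at 1000 or more.

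**Figure D1:**
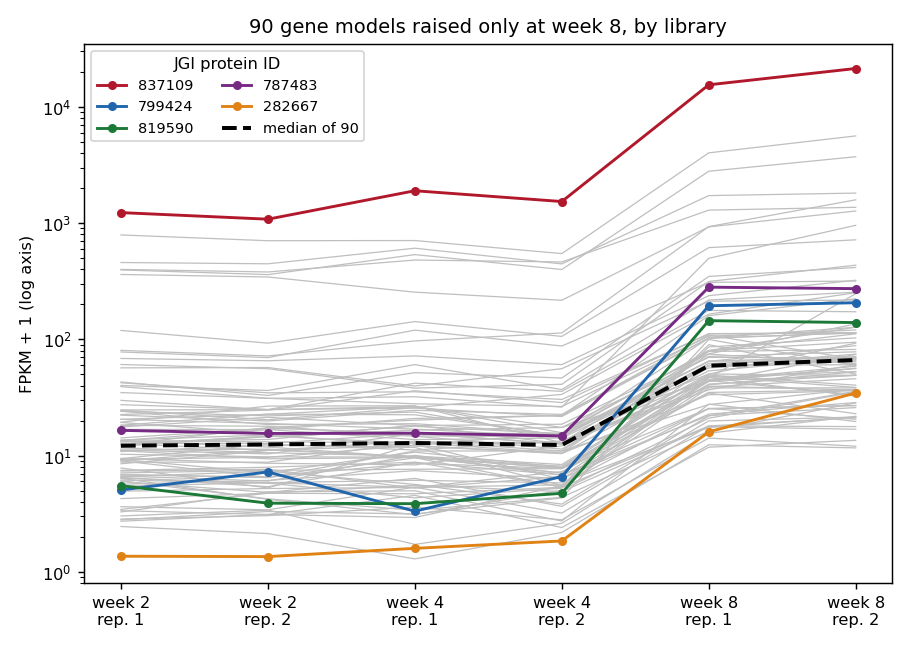
FPKM + 1 of the 90 members on a log axis in each of the 6 libraries. Each grey line joins the values of 1 gene model, 5 models are coloured by their JGI protein ID, and the dashed line joins the medians, which lay between 11.1 and 11.8 FPKM before week 8 and at 58.3 and 65.3 FPKM at week 8. Libraries of 1 week have no order.

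The member with the highest level, 837109, was a short gene model of 339 bases. Its FPKM were 1229 and 1078 in the week 2 libraries, 1895 and 1530 in those of week 4, and 15464 and 21360 in those of week 8. No other gene model had a higher FPKM in either week 8 library, whereas this one ranked at number 50 and 59 at week 2 and at 20 and 24 at week 4. By expected counts, which do not favour short models, it ranked at number 3 and 1 of the week 8 libraries, with 24425 and 34281 counts. Its mean was 16.0-fold that of week 2 and 10.7-fold that of week 4. Its weeks 2 and 4 differed by 1.48 times, close to the bound of 1.5 that the rule allowed.

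Model 796079 was next, with 789 and 704 FPKM at week 2, 706 and 545 at week 4, then 4017 and 5616 at week 8. Model 863189 stood at 394 and 359 FPKM at week 2, 534 and 397 at week 4, then 2790 and 3718 at week 8. Both were already well expressed before week 8, and in both the week 8 libraries lay well clear of the other 4. By FPKM, 837109, 796079 and 863189 ranked at number 1, 4 and 10 of all models in week 8 replicate 1 and at 1, 3 and 5 in replicate 2.

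Models 819969, 788507 and 833108 were also abundant, with smaller ratios. Model 819969 went from 457 and 445 FPKM at week 2 and 607 and 444 at week 4 to 1722 and 1809 at week 8. Model 788507 had 398 and 378 FPKM at week 2, 480 and 461 at week 4, then 1291 and 1365 at week 8. Their ratios of 2.84 and 2.69 lay near the bound, and neither met the rule once FPKM were divided by the TMM factors. Model 833108 stood at 360 and 343 FPKM at week 2, 253 and 216 at week 4, then 926 and 1269 at week 8. It too missed the rule with TMM, by its ratio and by its difference between weeks 2 and 4, which was 1.496 times before that scaling and 1.53 after it.

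A pair of members came from far lower to comparable levels. Model 799412 stood at 79.3 and 70.9 FPKM at week 2, 95.8 and 112.3 at week 4, then 931 and 1583 at week 8, which moved it from number 1729 and 1920 of all models to number 58 and 21. Model 839622 stood at 33.8 and 30.03 FPKM at week 2, 31.0 and 25.1 at week 4, then 496 and 955 at week 8. The week 8 libraries differed by 1.70 and 1.92 times for these models, and in both cases replicate 2 was the higher. Models 735439 and 793417 completed the 10 most abundant members, with week 8 means of 665 ± 72.7 and 380 ± 47.7 FPKM (SD, n = 2) against 123 ± 25.6 and 48.0 ± 3.69 at week 4.

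**Figure D2:**
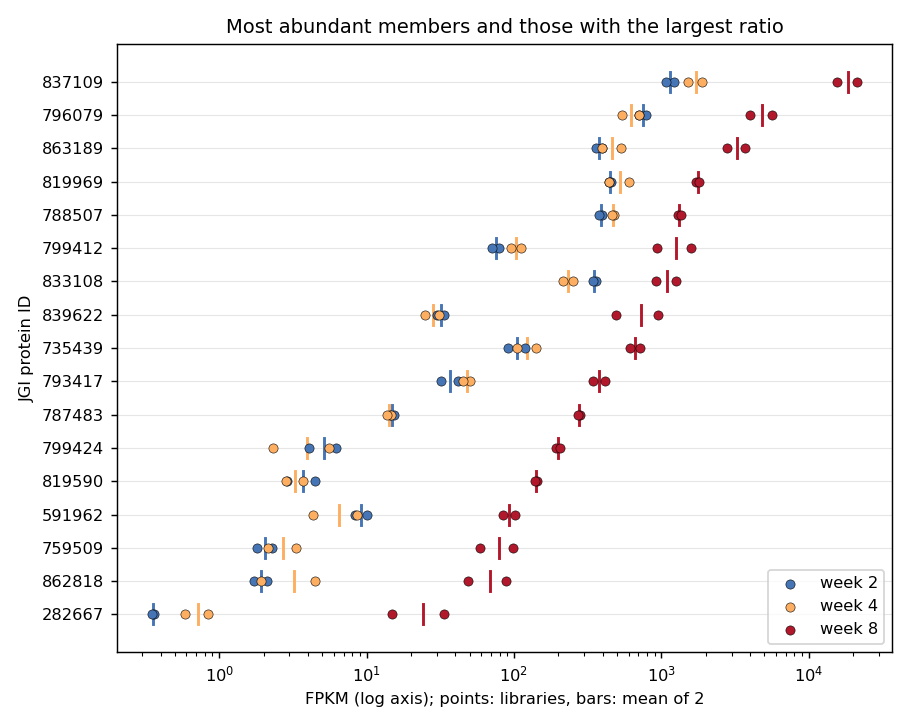
FPKM on a log axis of the 17 members that were among the 10 most abundant at week 8 or the 10 with the largest ratio. Points are libraries, coloured by week, and bars are means of 2 libraries. In every row the week 8 points lie to the right of the earlier ones, as the rule required, from 282667 at a week 8 mean of 24.2 FPKM to 837109 at 18412.

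The 2 largest ratios belonged to members that were scarce before week 8. Model 799424 stood at 4.05 and 6.22 FPKM at week 2, 2.32 and 5.59 at week 4, then 193 and 205 at week 8. Its lower week 8 library was 26.9 times its highest earlier one, with 1 added to each FPKM. Those earlier levels rested on 14, 22, 8 and 19 expected counts, against 680 and 734 at week 8.

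Model 819590 stood at 4.50 and 2.89 FPKM at week 2, 2.85 and 3.73 at week 4, then 144 and 138 at week 8, a ratio of 25.3. Model 787483, the longest member with 3488 bases, had an even course. It stood at 15.5 and 14.5 FPKM at week 2, 14.6 and 13.7 at week 4, then 280 and 272 at week 8, a ratio of 16.6 from 239 to 273 counts in each earlier library. For these 3 models the week 8 libraries differed by less than 1.1 times.

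Models 759509 and 862818 had ratios of 13.8 and 9.12 but a less even week 8. Model 759509 stood at 1.8 and 2.3 FPKM at week 2, 2.14 and 3.31 at week 4, then 98.7 and 58.7 at week 8. Model 862818 stood at 1.72 and 2.11 FPKM at week 2, 1.93 and 4.50 at week 4, then 88.8 and 49.2 at week 8. Replicate 1 was the higher at week 8 in both, the reverse of the abundant members. Some reads of 862818 were divided between similar gene models, so its level is uncertain.

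Model 282667 came nearest to a transcript seen at week 8 alone. It stood at 0.36 and 0.35 FPKM at week 2, 0.59 and 0.84 at week 4, then 14.99 and 33.5 at week 8. This was 18 expected counts over the 4 earlier libraries and 422 over the 2 of week 8, a ratio of 45.8 per library total. Its 95% exact counting interval, from 28.6 to 78.0, covers counting error only. The rule chose the model by these values, so the interval tests nothing. Library totals also leave in the higher level of a typical model at week 8. The week 8 libraries differed by 2.23 times, so the size of the step is less sure than the counts alone make it. Model 738955, singled out for its low counts after its values were seen, had a like depth, with 14 earlier counts and 78 at week 8. Its ratio per library total was 10.9 with an interval from 6.11 to 20.8, which is no test either.

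Model 591962, at 10 and 8.37 FPKM at week 2, 8.59 and 4.35 at week 4, then 84.9 and 101.8 at week 8, closed the 10 largest ratios. Of these 10 members, 3 were also among the 10 most abundant. The other 73 members had ratios from 2.51 to 7.25 and week 8 means from 11 to 373 FPKM, and no library before week 8 had any of them above 119 FPKM.

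The bound of 2.5 fell within a continuous range of ratios. Just inside it were 798636 with a ratio of 2.51, 733924 and 754043 with 2.52 each, and just outside were 833161 with 2.48, 797766 with 2.45 and 838925 with 2.45. Model 798636 stood at 8.00, 5.49, 9.94 and 9.93 FPKM in the 4 earlier libraries and at 26.5 and 36.2 at week 8. Model 833161, outside the set, stood at 11.2, 9.58, 14.1 and 10.4 and then at 36.4 and 39.9. Among models that met the other 2 conditions, 150 had a ratio of at least 2, 61 at least 3, 21 at least 5, 5 at least 10 and 2 at least 20. Across all 5355 such models the median ratio was 1.06.

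**Figure D3:**
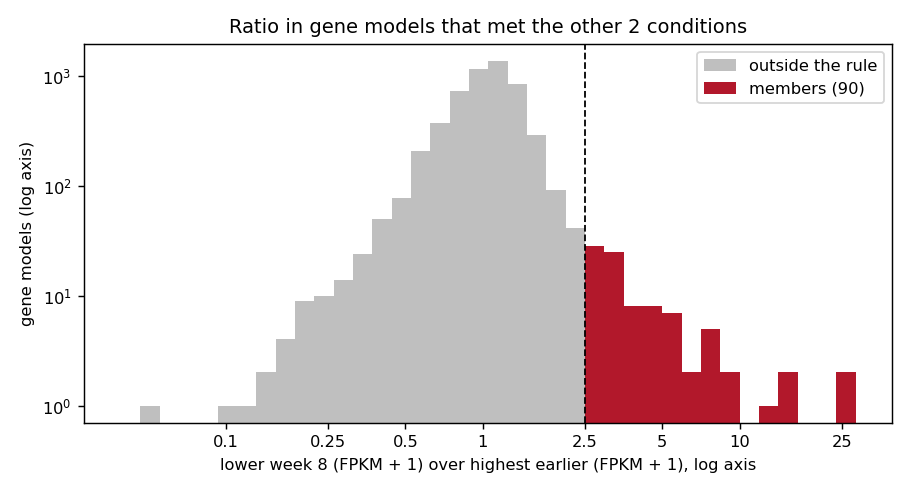
Number of gene models, on a log axis, by the ratio of the lower week 8 to the highest earlier value of FPKM + 1, also on a log axis, for the 5355 models that met the other 2 conditions. Red bars right of the dashed line at 2.5 are the 90 members. The counts thin out across the line with no gap, and the largest ratio was 26.9.

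Turned to the other weeks, the same bounds took 103 gene models raised only at week 2 and 75 raised only at week 4, beside the 90 for week 8. The mirrored rule, for models at 10 FPKM or more in the other 4 libraries that were lower in 1 week alone, took 62 models for week 2, 13 for week 4 and 17 for week 8. These counts share libraries and were taken on FPKM as deposited, so the higher FPKM of a typical model at week 8 enters them.

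The 90 members took up a larger part of the transcriptome at week 8, which follows from how they were chosen. They held 0.680% and 0.632% of a library's summed FPKM at week 2, 0.823% and 0.689% at week 4, then 4.80% and 6.10% at week 8. In expected counts this was 0.477% and 0.445%, 0.550% and 0.458%, and 2.74% and 3.47%. Model 837109 alone held 2.15% and 2.85% of the week 8 FPKM, but 0.481% and 0.665% of the counts, which are not divided by length. Without it the other 89 members held 2.64% and 3.24% of the FPKM at week 8, against 0.475% to 0.563% earlier. Among the 100 models of highest FPKM were 2 and 1 members at week 2, 1 and 1 at week 4, then 7 and 9 at week 8.

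**Figure D4:**
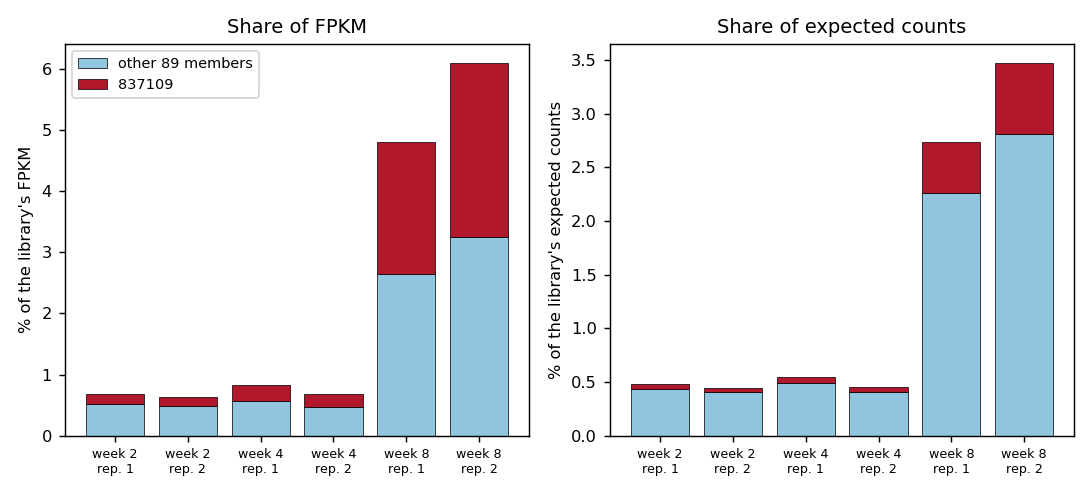
Percent of each library's summed FPKM (left) and expected counts (right) held by the 90 members. Model 837109 is stacked in red on the other 89 members in blue. Each bar is 1 library, and the members' share of FPKM was 0.823% or less before week 8 and 4.80% and 6.10% at week 8.

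Members were mostly higher in replicate 2 of week 8 than in replicate 1. The rule read both libraries through the lower value, without regard to which library that was. Both values decided membership, so this lean is drawn from values that the rule used. Replicate 2 was the higher for 69 of 90 members (76.7%), against 55.1% of the 8316 models at 10 FPKM or more in both. With 1 added to each FPKM, the median member was 1.13 times higher in replicate 2 and the median model 1.02 times. By week 8 mean, which includes replicate 2, all 10 of the most abundant members were higher in replicate 2, by 1.05 to 1.92 times. So were 27 of the 30 most abundant and 18 of the 30 least abundant. By ratio, it was 6 of the 10 largest, 24 of the 30 largest and 25 of the 30 smallest. With TMM-scaled FPKM it was 66 of 90 members and 51.1% of all models. A difference between single libraries has no replicate and was not tested.

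The week 8 libraries were also further apart for members than for models in general. The rule bounded the lower week 8 value and left the higher one free, so this spread is drawn from values that it used. There, 17 members (18.9%) differed by at least 1.5 times between the 2 libraries, against 5.69% of all models at 10 FPKM or more in both. The widest was 830362, the shortest member with 255 bases, at 45.6 and 245.7 FPKM, after 9.82, 11.3, 10.7 and 4.53 FPKM in the earlier libraries. Its week 8 counts were 52 and 285. The lowest ratios of replicate 2 to replicate 1 were 0.554 for 862818 and 0.594 for 759509. At week 4 the lean was the other way, with 61 of 90 members higher in replicate 1. Among models at 10 FPKM or more in both week 4 libraries it was 33 of 46 members and 4672 of 7718 in all. With TMM-scaled FPKM, 36 of all 90 members were higher in replicate 2 of week 4, so most stayed higher in replicate 1. Of all models at 10 FPKM or more in both week 4 libraries, 50.1% were then higher in replicate 2. The rule used the week 4 values too.

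**Figure D5:**
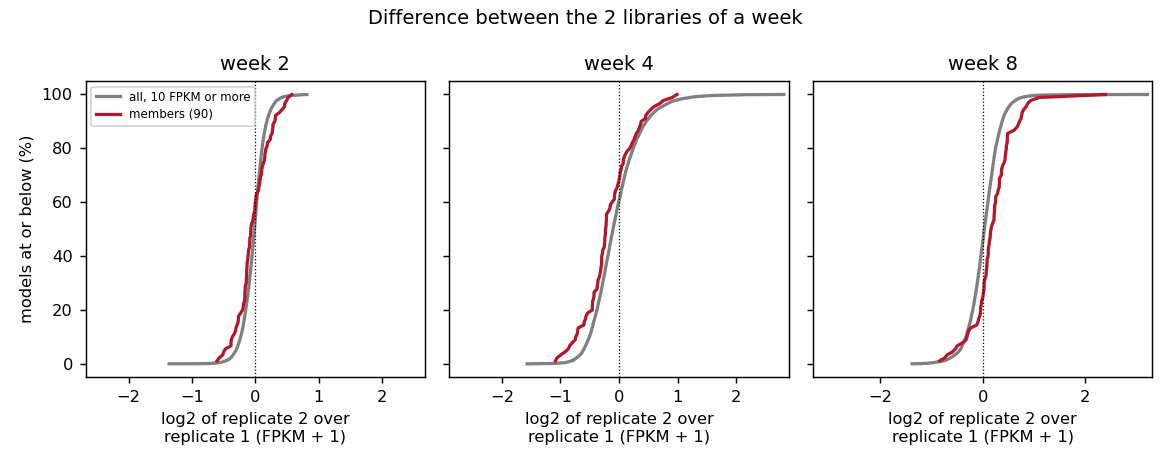
Cumulative percent of gene models by the log2 ratio of replicate 2 to replicate 1 (FPKM + 1) at weeks 2, 4 and 8. Red lines are the 90 members and grey lines all models at 10 FPKM or more in both libraries. At week 8 the red line lies to the right of the grey one through the middle of the range, with a median of 0.17 against 0.03, and at week 4 to its left, with -0.23 against -0.10.

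A choice made in 1 library of each week was partly met in the other. The split follows the replicate numbers alone, and the samples of a week may be technical, so these counts describe and do not test. The rule read in replicate 1 alone took 124 models, of which 66 (53.2%) also met it in replicate 2. Of the 8523 models at 10 FPKM or more in week 8 replicate 2, 2.15% met it there. The 124 had a median ratio of 3.22 where they were chosen and 3.44 in the libraries not used, against 1.13 over the 8523. In replicate 2 the week 8 level was above both earlier ones for 117 of the 124, and for 60.3% of those 8523 models. The rule read in replicate 2 alone took 183 models, of which the same 66 (36.1%) met it in replicate 1. Of the 8539 models at 10 FPKM or more in week 8 replicate 1, 1.45% met it there. The 183 had a median ratio of 3.59 where they were chosen and 2.58 where they were not. Of the 183, 182 were above both earlier levels in replicate 1, where 56.8% of the 8539 models at 10 FPKM or more were. Missing the rule came from the ratio in 33 and 86 models and from the bound on weeks 2 and 4 in 41 and 58, with some missing both.

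In the fit of edgeR to the counts, all 90 members were called higher at week 8 than at week 4 at a Benjamini-Hochberg adjusted p below 0.05, and all 90 higher than at week 2. Over all 10889 tested models 18% and 13.2% were so called, and since these values chose the members nothing is read from their count. The members' median log2 fold change was 2.03 over week 4 and 2.08 over week 2, from 1.20 to 5.36 and from 1.20 to 5.78. Between weeks 2 and 4, 5 members were called changed, beside 37.2% of all tested models. They were 840262, 783882, 833108, 421222 and 797065, listed after their values were seen. The rule had read these values too and held their means within 1.5 times, so nothing is read from that count either. At an adjusted p below 0.01 that count was 0, beside 2322 of the 10889 tested models.

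Members were seldom long. Their median length was 1190 bases, with quartiles of 833 and 1645, against 1434 bases with quartiles of 965 and 2036 for the 8316 models at 10 FPKM or more in both week 8 libraries. Over 2000 bases were 8 members (8.89%) and 26.1% of those 8316 models. Under 500 bases were 7 members (7.78%) and 5.59%. Reads shared with similar models affected 10 members (11.1%) and 9.55% of those models. Over all 12424 models the median was 1243 bases, nearer to that of the members, with quartiles of 802 and 1848. Of all models, 20.6% were over 2000 bases, 8.87% were under 500 and 11.8% had shared reads.

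The names of the members give a partial view of their places in the genome assembly. In JGI naming most kinds of model name carry a scaffold number, which 64 of the 90 members and 8258 of all models had. These 64 members fell on 53 of the 514 scaffolds so named, and 20 of them shared a scaffold with another member. Of all models, 0.72% were members. Scaffolds 101 and 137 had 3 members each, of 24 and 17 models with that number in the name, and 7 scaffolds had 2. Scaffold 285 was named by 3 models, and 2 of them, 740788 and 798769, named here for that reason alone, were members. Of 48 members whose name also gives a running number along the scaffold, none lay within 10 numbers of another member of the same kind of name. Only on scaffolds 2 and 101 did such members share both scaffold and kind of name, so this count could hardly be other than low. Models of different kinds are numbered separately, so neighbours with unlike names would be missed. Whether members lay closer together than other models was not tested.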

How the data were processed

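Messenger RNA from 6 samples of Obba rivulosa on spruce wood was sequenced, and 1 table per sample was deposited. Per the submitters' processing notes, the tools were BWA, Bowtie and RSEM, with no versions. Which genome build was used is not given in the sources used here. Expected counts per gene model are the authors' estimates, without normalization. The deposited FPKM values equal the count divided by the model's length less 36 bases and by a total 1.026 to 1.028 times that of the listed counts. Gene model length, in bases, comes from the same tables. Models without a row were taken as 0.

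The rule was applied to the FPKM. The expected counts, rounded to integers, were fitted with edgeR 4.0.16 (quasi-likelihood test, TMM, filterByExpr) in R 4.3.3, all 6 libraries with a mean per week. P-values were adjusted by Benjamini-Hochberg over all 10889 models, and calls made below 0.05. Alternatives used DESeq2 1.42.0 and limma 3.58.1. Rule and fit were run on simulated data with planted changes, which checks their working and bears on no result here. Members, lists and tests were chosen with earlier results of these data known. Named models are the 10 highest at week 8, the 10 largest ratios, those next to the bound of 2.5, those below 1 FPKM earlier, the extremes of the ratio between week 8 libraries and of length, and exceptions named as such (a rule for runs of neighbours took none). No reference annotation or sequence was used.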

Additional observations from a re-analysis of the deposited data

How the results depend on the processing

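The number of models meeting the rule was 59 with TMM-scaled FPKM, 57 with size factors (RLE) and 150 with a ratio of 2. It ranged from 91 to 139 when 1 library was left out, the latter without week 8 replicate 1. It stayed within 1.5 times of 90 in the other alternatives. In the fits of all 6 libraries, 89 or 90 members were called higher at week 8, beside 813 to 3642 of all models. The rule had chosen the members by these values, so nothing is read from their count. Members called changed between weeks 2 and 4, a difference that the rule had bounded, numbered 0 at an adjusted p below 0.01, beside 2322 of all models. A replicate block left 3, beside 3688, and the other alternatives with all 6 libraries 4 to 6, beside 3408 to 4039. The count moved without either week 2 library or without week 4 replicate 1. Such fits assume that the lone library of a week varies like the others. Deviations of same-numbered samples had correlations of 0.00, -0.07 and -0.13 between weeks, which cannot tell whether equal numbers share a culture or batch. With library totals only the members' median log2 fold changes were 2.33 over week 4 and 2.41 over week 2. Their mean share at week 8 went from 5.45% to 2.94% of FPKM and from 3.11% to 2.53% of counts without 837109, an alternative chosen after seeing the data, as were the rescaled comparisons of single libraries. Choosing in replicate 2 in place of replicate 1 left 36.1% in place of 53.2%. Both percents are of the same 66 models, over 183 chosen in place of 124. No cause was tested for any of the differences in this section.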
